A study of Harpegnathos saltator with 19 samples.

Results

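The genes described here are the well-expressed long non-coding RNA (lncRNA) genes of the central brain of the ant Harpegnathos saltator. A member is a gene with the RefSeq biotype lncRNA or ncRNA that reached 10 FPKM (reads per kilobase of gene model, scaled for the depth of the library) in at least 5 of 19 libraries. The rule found 60 members among 1029 genes of these biotypes and 14001 genes in the table, and all 60 carry the biotype lncRNA. The members were thus chosen by their measured FPKM over all 3 groups, so their height is a description and not a result.

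Each library came from the central brain of a single worker, dissected 10 h after an injection into the head below the antennae. Of the ants, 7 received 100 ng of 20E (20-hydroxyecdysone, the active moulting hormone of insects), 7 received 100 ng of JH3 (juvenile hormone III), and 5 received the DMSO control. The hormones were dissolved in 5% glucose (what the control injection held beside DMSO, and the age of the ants, is not stated). Replicates 4 to 7 of 20E, 4 to 7 of JH3 and 4 and 5 of DMSO carry 200212 at the head of the submitters' internal reference, and replicates 1 to 3 of every group carry 190514; this number is called the run label below.

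A lncRNA is a transcript without a recognised protein-coding frame. Some act on the gene next to them, others hold proteins together in the nucleus, and many have no known role; in the brain of the honey bee several are made in chosen sets of neurons. Their loci often lie next to or across a coding gene, with which they can share a start region. Libraries made from poly(A) RNA, as here, record only lncRNAs that carry a poly(A) tail. None of the 60 members has a name beyond its number in the RefSeq table, and no function is assigned to any of them below.

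Depth, read back from the regular steps of the FPKM values, was 15.58 to 22.71 M reads on genes in 20E, 13.04 to 24.20 M in JH3 and 18.27 to 25.52 M in DMSO. Of 9381 genes tested with limma, 4779 (50.9%) differed between the run labels, so the run label was a term of the model behind the values below, unless a sentence says otherwise. Brain 6 of 20E and brain 1 of JH3 stood apart: 30.2% and 15.4% of all tested genes lay more than 2 residual SDs from the fit in them, against at most 3.67% in any of the other 17 libraries. Neuronal markers summed to 806.7 to 1389.2 FPKM in 20E, 774.5 to 1142.2 in JH3 and 756.4 to 969.3 in DMSO (9 of 12 matched). Glial markers summed to 502.4 to 880.7 FPKM in 20E, 421.1 to 861.0 in JH3 and 750.9 to 1051.2 in DMSO (6 of 10 matched). The glial sum was mostly Gs2 (median 619.8 FPKM, where the next, Gat-a, had 42.2). Photoreceptor and eye markers (8 of 11 matched) ran from 66.0 to 456.5 FPKM in 20E, 37.3 to 437.7 in JH3 and 43.4 to 490.8 in DMSO. In every group this sum was thus low in some brains and high in others. Its highest gene was Arr2 (205.6 ± 180.7 FPKM in DMSO, SD), while trp varied little (1.41 ± 0.282). Against DMSO, 20E brains had more rdgA (1.06 ± 0.12 on the log2 scale, SE, adjusted p = 2.41e-05, limma) and less sev (-0.6 ± 0.15, adjusted p = 0.0312). Fat body markers summed to 1710.7 to 2278.4 FPKM in 20E, 1513.7 to 2131.0 in JH3 and 1739.8 to 2309.1 in DMSO (5 of 7 matched). Most of this sum was Tsf1 (median 1474.3 FPKM). The listed Vg was matched without regard to case to a gene with the symbol vg (2.89 FPKM), whose identity was not checked. Muscle markers (6 of 8) stayed at 134.8 FPKM or less and haemocyte markers (2 of 5) at 42.6 or less in every library, the medians of trpl (0.0396 FPKM) and sls (0.192 FPKM) were under 0.5 FPKM, and none of the 4 head gland markers was matched. In such bulk samples, fewer cells of a type and less RNA per cell cannot be told apart.

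The members covered a wide range of levels. By the median over 19 libraries, 5 members were above 100 FPKM, 18 lay between 20 and 100, 23 between 10 and 20, and 14 below 10 FPKM. The 5 highest held 75.9% of the members' summed median level. Of the 60, 27 reached 10 FPKM in every library and 5 in exactly 5. Just inside the threshold, the fifth-highest library read 10.0 FPKM for LOC112589137, 10.1 for LOC109504633 and 10.2 for LOC112588558; just outside it read 9.98 for LOC105184468, 9.97 for LOC112588259 and 9.96 for LOC105186555. The gene models were short, with a median of 2242 bases against 4915 bases for the 4048 protein-coding genes that met the same level rule, and 38 members had a single RefSeq transcript. In the median library a member had 652 reads, and 9 members had fewer than 100 reads in their lowest library.

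**Figure D1:**
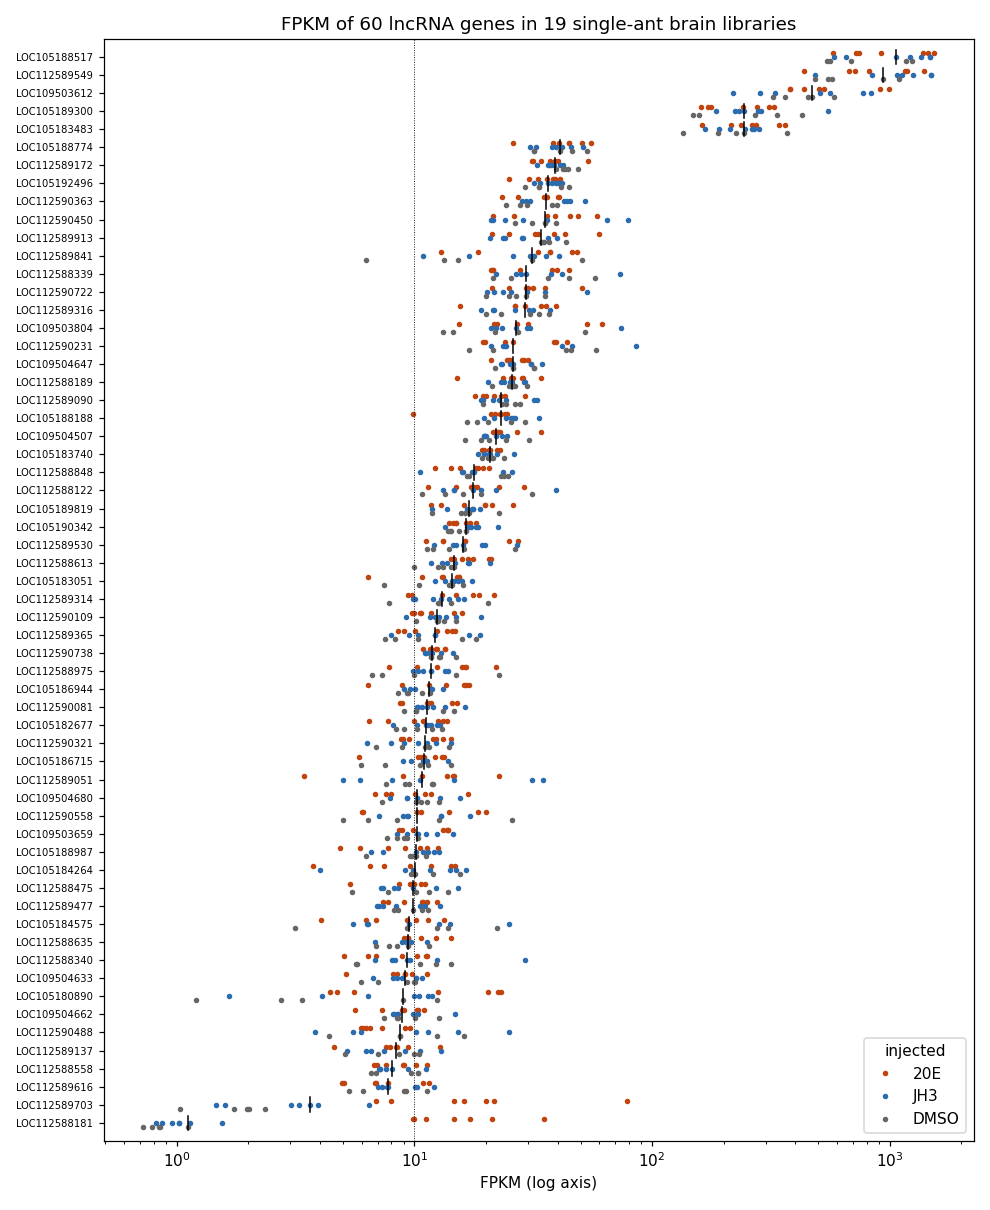
FPKM of the 60 lncRNA genes (rows, ordered by median) in 19 libraries on a log axis, coloured by the injected agent, with a tick at the median and a dotted line at 10 FPKM. The 5 highest genes stand apart above 100 FPKM, and in the lowest rows, LOC112589703 and LOC112588181, the 20E points lie to the right of all others.

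The highest member was LOC105188517, with a median of 1065.3 FPKM. It ranged from 577.4 over 921.0 to 1533.2 FPKM (lowest, median, highest) in 20E and from 582.4 over 1212.6 to 1474.0 in JH3, against 683.8, 544.5, 561.9, 1165.9 and 1238.9 FPKM in the 5 DMSO brains. The 3 groups overlapped over most of their range. This gene alone took 0.844% to 2.41% of all reads on genes in a library (median 1.7%), and the 60 members together took 1.39% to 3.18% (median 2.42%). The authors' model for it is 15484 bases long while its RefSeq span is 2070 bases, so the annotation behind the FPKM differs from the RefSeq table here. A model longer than the RefSeq span was found for 16 of the 60 members. The same held for 1283 of the 4048 coding genes of the same level rule and for 3764 of all 9381 tested genes, so it is not particular to the members.

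LOC112589549 came next at a median of 937.1 FPKM, with 435.4 to 1395.2 FPKM in 20E and 483.6 to 1490.0 in JH3, against 482.6 to 1097.6 in DMSO. LOC109503612, a model of 270 bases, had a median of 469.8 FPKM, with 379.8 to 990.5 in 20E and 219.6 to 835.3 in JH3, against 323.5 to 583.1 in DMSO. LOC105189300 (243.4 FPKM) and LOC105183483 (242.6 FPKM) had nearly equal medians. The order of the 2 highest is not firm: the ratio of LOC112589549 to LOC105188517 ran from 0.754 to 1.4 among libraries, with a median of 0.881. None of these 5 differed between groups past the threshold; their log2 fold changes were 0.03 to 0.21 for 20E and -0.08 to 0.48 for JH3 against DMSO, with adjusted p of at least 0.999 and 0.627 (limma).

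Spread between ants was taken as the SD of log2(FPKM + 0.5) left after group and run label. Its median was 0.31 over the members, with quartiles at 0.22 and 0.41 and a range of 0.11 to 1.03. Coding genes of the same level rule had a median of 0.20, all tested genes 0.22, and the 357 other tested lncRNA genes 0.34. Over the 9381 tested genes the spread fell with level (Spearman -0.28) and with model length (-0.18). The members had shorter models than the coding genes and a lower median level (13.7 against 17.3 FPKM). The part of level or length in the difference was not tested. An SD above 0.5 was seen for 9 members (15%) and for 3.75% of the coding genes. Within DMSO alone, the median coefficient of variation of FPKM was 22.9% for the members and 19.5% for the coding genes. This coefficient was taken without a run term over brains of both run labels, so it includes the run difference. Counting error was small beside this: its SD at a member's median reads was 0.0565 on the log2 scale for the median member and 0.185 at most, and 4 members had a spread under 2 such SDs.

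**Figure D2:**
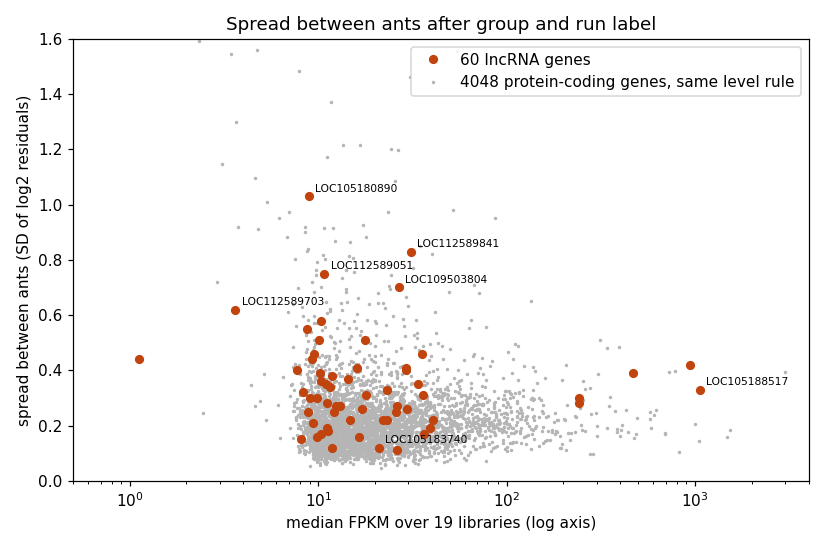
Spread between ants (SD of log2 residuals after group and run label) against the median FPKM (log axis) for the 60 lncRNA genes (large points) and 4048 coding genes of the same level rule (small points; 19 lie outside the axes). The lncRNA genes reach from 0.11 to 1.03, and 9 of them lie above 0.5.

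The most variable member was LOC105180890 (SD 1.03). Its FPKM was 4.41, 12.6 and 23.2 in 20E (lowest, median, highest) and 1.66, 9.95 and 11.9 in JH3, against 3.36, 12.5, 8.97, 2.74 and 1.21 in the 5 DMSO brains. High and low brains occurred in every group, and the highest library was 19.1 times the lowest. Its log2 fold change for 20E against DMSO, 1.32 ± 0.55 (SE), was the largest among members that did not pass (adjusted p = 0.387, limma). Over the 19 libraries the genes with the most similar log2 level were TRAM (Pearson r = 0.806), Cad96Ca (0.783) and LOC105180643 (0.779); these coefficients describe 19 points that share group and run.

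LOC112589841 (SD 0.83) ranged from 13.0 to 48.4 FPKM in 20E and from 10.9 to 40.7 in JH3, against 50.9, 15.2, 6.25, 31.2 and 13.3 in DMSO, where both its highest and its lowest value fell. LOC112589051 (SD 0.75) had 3.44 to 22.7 FPKM in 20E and 5.0 to 34.8 in JH3, against 7.57 to 12.0 in DMSO; its model is 277 bases long and its lowest library held 15 reads. LOC109503804 (SD 0.70) had 15.4 to 61.7 FPKM in 20E and 21.0 to 73.8 in JH3, against 13.2 to 52.1 in DMSO. LOC112589703 (SD 0.62), the fifth, is described with the 20E response below.

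At the other end, LOC109504647 (SD 0.11) averaged 26.1 ± 3.12 FPKM in 20E, 27.7 ± 4.37 in JH3 and 27.5 ± 4.33 in DMSO (SD, n = 7, 7 and 5), with 21.1 to 34.4 FPKM over all brains. LOC105183740 (SD 0.12) stayed between 18.6 and 26.3 FPKM in all 19 brains, with 21.0 ± 1.3 in 20E, 21.1 ± 2.56 in JH3 and 21.3 ± 1.68 in DMSO. LOC112590738 (0.12) stayed between 10.9 and 14.9 FPKM. LOC112588558 (0.15) and LOC105190342 (0.16) complete the 5 steadiest members; the first ranged from 6.6 to 11.3 FPKM and the second from 13.5 to 22.5 FPKM.

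Part of the spread went with the level of neuronal markers. The summed level of 9 neuronal genes, among which Appl, the fly homologue of the amyloid precursor protein, was the highest (median 351.5 FPKM), was added to the model beside group and run label. Its slope passed the threshold for 22 members and for 34.2% of all tested genes (limma, adjusted over the 9381 genes). It was positive for 16 of these members and negative for 6, and over all tested genes positive for 1572 and negative for 1634. Without brain 6 of 20E and brain 1 of JH3, 10 members (16.7%) and 8.35% of all genes passed; without brain 6 of 20E and brain 2 of JH3, whose neuronal level lay farthest from the median, 8 members (13.3%) and 2.17% passed. In all 3 fits together 7 members (11.7%) passed, as did 1.73% of all genes, and this was seen after the values were known.

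The 7 were LOC112590722, LOC112590450, LOC109503804, LOC112589051, LOC112588122, LOC109504507 and LOC112588635, and the slope was positive for each. The slopes given here are those of the fit of all 19 libraries, brain 6 of 20E included. LOC112590722 rose by 1.71 ± 0.17 (SE) on the log2 scale per doubling of the neuronal sum (adjusted p = 8.01e-06, limma) and LOC112590450 by 1.86 ± 0.20 (adjusted p = 1.54e-05). LOC109503804 and LOC112589051, from the 5 most variable members, had slopes of 2.57 ± 0.41 and 2.71 ± 0.46. The shallowest slopes were 0.80 ± 0.15 for LOC109504507 and 0.74 ± 0.15 for LOC112588635. The haemocyte sum held only drpr (median 21.9 FPKM) and Hml (2.2 FPKM). It therefore follows mainly drpr, and which cells held drpr was not tested. In the same way the glial sum follows mainly Gs2. For the glial sum 9 members passed over 19 libraries, where 26.3% of all genes did, and for haemocyte markers 13, where 29.8% did. Without brain 6 of 20E and brain 1 of JH3 both counts were 0, against 0.309% of all genes for glia and 1.18% for haemocytes. Without brain 6 of 20E and brain 2 of JH3 they were 0 (0.0746% of all genes) for glia and 10 (20.1%) for haemocytes. For eye markers 0 members passed, where 0.373% of all genes did in the fit of 19 libraries and 0.384% and 0.373% in the reduced fits. Fat body and muscle markers gave 0 members as well, beside 0% and 0.149% of all genes.

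Against DMSO, 3 members were higher in 20E and 0 lower past an adjusted p of 0.05 (limma on log2(FPKM + 0.5), adjusted over 9381 genes); 5 had an unadjusted p under 0.05, as did 9.04% of all tested genes. Over all tested genes 3.34% were called, 2.59% higher and 0.746% lower. Of the 3, LOC112588181 and LOC112589703 reached 10 FPKM in no brain but those given 20E, so the level rule let them in through the group where they were high and their difference is a description. The median log2 fold change was 0.062 over the members and -0.007 over all tested genes, and 52 of the 60 lay within 0.3 of 0. The SE, which rests on the spread between ants, was larger for members than for coding genes of the same level rule, with medians of 0.17 and 0.11.

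LOC112588181 had 10.0, 17.1, 21.2, 9.83, 14.7, 35.0 and 11.2 FPKM in the 7 brains given 20E. In JH3 it had 0.818 to 1.55 FPKM (median 1.02) and in DMSO 1.12, 0.842, 0.791, 0.85 and 0.725 FPKM. The lowest 20E brain was thus well above the highest brain of either other group. The log2 fold change was 3.56 ± 0.24 (SE) against DMSO, 11.8-fold on the log2(FPKM + 0.5) scale, and 3.49 and 3.63 within the run labels 190514 and 200212. JH3 differed from DMSO by 0.19 ± 0.24 (adjusted p = 0.775, limma). From reads without the added 0.5, by limma's voom, the 20E value was 4.14.

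LOC112589703 had 14.7, 7.94, 6.9, 21.7, 16.1, 78.7 and 20.1 FPKM in 20E. It had 1.47 to 6.47 FPKM (median 3.28) in JH3 and 1.74, 2.02, 1.03, 1.97 and 2.36 FPKM in DMSO. The 20E brains did not overlap either other group, and brain 6, one of the libraries that stood apart, was by far the highest. The log2 fold change against DMSO was 2.80 ± 0.34 (SE), and 2.53 without brain 6 of 20E and brain 1 of JH3 together. It was 2.26 within run label 190514 and 3.39 within 200212.

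Several of the genes most like these members in log2 level over the 19 libraries are known in flies. For LOC112588181 they were sing, a membrane protein of muscle cell fusion (Pearson r = 0.987), Np, a serine protease (0.979), and LOC105183767 (0.975). For LOC112589703 they were stan, a cadherin of planar polarity (0.947), pyd, a junction scaffold (0.942), and Eip74EF, an early ecdysone response factor (0.941). All 6 are coding genes that were themselves higher in 20E than in DMSO, by 1.0 to 2.92 on the log2 scale (limma, adjusted p of 4.98e-07 or less), so these coefficients include that group difference.

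LOC109503659 was the third member called. It had 8.62, 13.2 and 13.8 FPKM in 20E (lowest, median, highest) and 8.45, 10.4 and 14.5 in JH3, against 9.06, 10.4, 9.35, 7.64 and 8.41 in DMSO. The groups overlapped, while within each run label every 20E brain was above every DMSO brain. The log2 fold change was 0.41 ± 0.10 (SE, adjusted p = 0.0258, limma) for 20E and 0.32 ± 0.10 (adjusted p = 0.197) for JH3. The 20E call was lost without a run term (0.35, adjusted p = 0.5), in a fit of the 2 groups alone (0.40, adjusted p = 0.0856), within each run label (0.48 and 0.31) and without any one of 20E brains 1, 2 and 3 or DMSO brains 1, 3 and 4 (0.38 to 0.41, adjusted p 0.0502 to 0.0843).

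**Figure D3:**
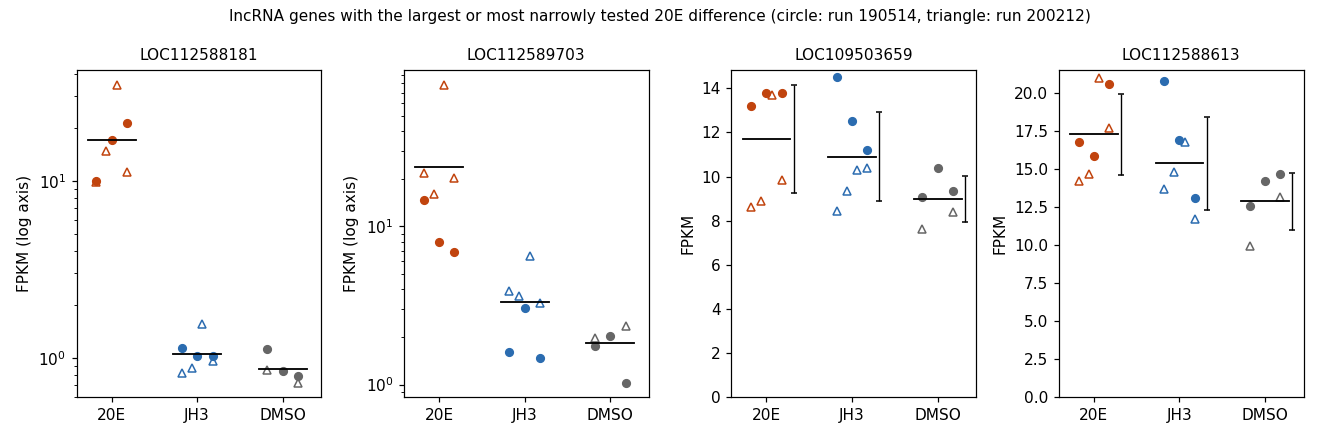
FPKM of 4 lncRNA genes by injected agent, 1 point per brain (filled circles run 190514, open triangles run 200212), with a line at the mean and, in the panels with a linear axis, a bar for the SD. All 20E points of LOC112588181 and LOC112589703 lie above those of JH3 and DMSO, on log axes, while the groups overlap for LOC109503659 and between 20E and DMSO for LOC112588613.

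LOC112588613 missed the threshold. It had 14.2, 16.8 and 21.0 FPKM in 20E and 11.7, 14.8 and 20.8 in JH3, against 12.6, 14.2, 14.7, 9.96 and 13.2 in DMSO, with a log2 fold change of 0.43 ± 0.13 for 20E (adjusted p = 0.079, limma).

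In JH3, 0 members passed against DMSO, and 2 had an unadjusted p under 0.05 (limma), as did 8.29% of all tested genes. Over all tested genes 0.927% were called, 0.629% higher and 0.298% lower. The smallest adjusted p belonged to LOC109503659 (above), LOC105190342 (0.22 ± 0.10, adjusted p = 0.539) and LOC112588613 (0.26 ± 0.13, adjusted p = 0.604, limma). LOC105190342 had 13.5 to 22.5 FPKM in JH3 and 13.9 to 16.5 in DMSO. The call of LOC109503659 in JH3 appeared with library weights (0.33, adjusted p = 0.0368) and without brain 6 of 20E (0.33, adjusted p = 0.0448). The log2 fold changes of the members ran from -0.33 to 0.71, with 51 of 60 within 0.3 of 0. Their median was 0.110, that of all tested genes 0.003 and that of the other tested lncRNA genes 0.098. Above 0 were 46 of the 60 members, 241 of the 357 other tested lncRNA genes and 4766 of all 9381 tested genes. Beside this stand 2 measurements: the members' models are short, and over the 9381 genes the JH3 log2 fold change fell with model length (Spearman -0.21 across genes, which are not independent; -0.24 across the 60 members). With library weights the members' median was 0.037 and 37 were above 0. Of 6 glial markers tested, moody (-0.63 ± 0.13, adjusted p = 0.0222, limma) and Gat-a (-0.62 ± 0.14, adjusted p = 0.0398) were lower in JH3. The part of length, library quality or glial RNA in the members' shift was not tested.

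Between the hormones, 2 members were higher in 20E than in JH3 and 0 lower, where 5.34% of all tested genes were called (3.9% higher, 1.44% lower). An unadjusted p under 0.05 was found for the same number, 2, and for 13.9% of all tested genes. They were LOC112588181 (3.37 ± 0.22 on the log2 scale) and LOC112589703 (2.33 ± 0.31), the genes admitted through 20E alone. The next smallest adjusted p was 0.450, for LOC105190342 (-0.16 ± 0.09, limma). The comparisons with DMSO share the DMSO brains, and those of each hormone share its brains, so their values are not independent of one another. Leaving out the 2 genes admitted through 20E, 1 of 58 members was called for 20E against DMSO, 0 for JH3 against DMSO and 0 for 20E against JH3. Coding genes of the same level rule were called at 4.57%, 1.58% and 7.71% in these comparisons, and other tested lncRNA genes at 1.12%, 0.0% and 1.68%.

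The interaction of hormone and run label, which asks whether the 2 runs responded unequally, was called for 0 members in each of the 3 comparisons by limma, with 0 (20E against DMSO), 8 (JH3 against DMSO) and 3 (20E against JH3) at an unadjusted p under 0.05. Over all tested genes it was called at 0.0% in each, with 2.21%, 4.8% and 2.64% at an unadjusted p under 0.05.

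**Figure D4:**
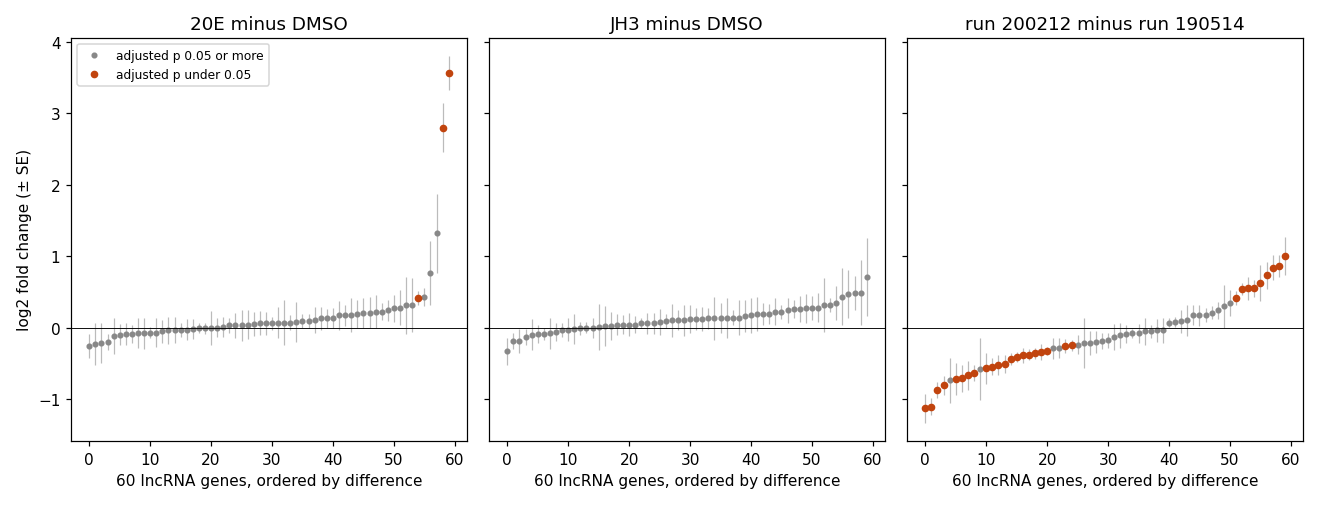
Log2 fold changes (points, with SE as bars) of the 60 lncRNA genes, ordered within each panel, for 20E minus DMSO, JH3 minus DMSO and run 200212 minus run 190514; orange-red points have an adjusted p under 0.05. The panels hold 3, 0 and 30 such points, and the 2 highest in the first panel are the genes admitted through 20E alone.

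The run label moved far more members than either hormone. In run 200212 relative to 190514, 9 members were higher and 21 lower, 50.0% of the 60 and close to the 50.9% of all tested genes (25.6% higher, 25.3% lower). At an unadjusted p under 0.05 it was 32 members and 56.3% of all tested genes. The median log2 difference was -0.183 over the members and 0.0 over all genes. With values scaled to total reads instead, 8 members were higher and 27 lower, the members' median was -0.295 and that of all genes -0.101, so the members' shift relative to all genes was -0.194. The difference between the runs rose with model length, with a Spearman correlation of 0.54 over the 9381 genes and 0.33 over the members. What differed between the runs besides the label is not given, so a technical and a biological source cannot be told apart.

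Among members that passed, the largest falls were in LOC105184575 (-1.13 ± 0.20, adjusted p = 0.000151) and LOC112590231 (-1.11 ± 0.12, adjusted p = 3.67e-06, limma). LOC112590231 had 17.0 to 26.1 FPKM in run 200212 against 38.5 to 85.4 in run 190514, with no overlap. LOC105184575 had 3.14 to 9.48 FPKM against 10.2 to 25.1, again with no overlap. LOC112588339 (-0.87) had 21.1 to 29.6 FPKM in run 200212 and 36.5 to 73.3 in run 190514, LOC105189300 (-0.81) had 149.2 to 243.4 and 271.4 to 550.7, and LOC112590488 (-0.72) had 3.83 to 10.2 and 5.94 to 24.9. The first 2 of these 3 did not overlap between the runs, while LOC112590488 did. These members were picked as the largest falls, and the share of all tested genes without overlap was not counted. The separation is thus a description and not a trait particular to the members.

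Among members higher in run 200212, LOC112589703 differed by 1.0 ± 0.27, LOC105188517 by 0.86 ± 0.15, LOC109503612 by 0.84 ± 0.18 and LOC112589549 by 0.73 ± 0.19. LOC105188517 had 722.2 to 1533.2 FPKM in run 200212 and 544.5 to 1065.3 in run 190514, and the DMSO brains alone fell into 1165.9 and 1238.9 in run 200212 against 544.5 to 683.8 in 190514. LOC112590558 (0.62 ± 0.25, adjusted p = 0.045) lost its call in 16 of 27 alternatives. LOC105183483 was higher as well (0.55 ± 0.12, adjusted p = 0.00133, limma), so each of the 5 highest members differed between the runs, LOC105189300 being lower in run 200212 and the other 4 higher.

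Neighbours were read from the gene order of the RefSeq table, as the nearest coding gene on each side, with non-coding genes passed over. Distance was not measured, and a new scaffold was recognised only by a fall in start position. A gene called a neighbour below may therefore lie far away or on another scaffold. Each of the 60 members had a coding neighbour, and the spans of 16 overlapped one; because no source states whether counting used strand, reads of such a pair cannot be told apart. Of 112 neighbouring coding genes 90 were tested, and 3 were called for 20E against DMSO, 1 for JH3 against DMSO, 3 for 20E against JH3 and 55 for the run label. Over all tested genes the shares called were 3.34%, 0.927%, 5.34% and 50.9%, so the neighbours' 3 hormone counts lie near or below this background. LOC112588181 lies between LOC105190683 (median 0 FPKM) and LOC109504551 (0.227 FPKM), both too low to be tested. The tested neighbour of LOC112589703, LOC105187672, had a 20E log2 fold change of -0.26 ± 0.10 (adjusted p = 0.278, limma).

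Next to LOC109503659 in this gene order lies gro, which in flies encodes the corepressor Groucho. It averaged 12.0 ± 2.53 FPKM in 20E, 10.7 ± 1.42 in JH3 and 8.63 ± 1.02 in DMSO (SD, n = 7, 7 and 5). Its log2 fold change was 0.47 ± 0.12 for 20E (adjusted p = 0.0392, limma) and 0.32 ± 0.12 for JH3 (adjusted p = 0.414), close to the 0.41 and 0.32 of the lncRNA gene. The neighbour on the other side, LOC105181200, had -0.02 ± 0.09 for 20E. Their spans do not overlap in the RefSeq table.

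Other neighbours that passed were picked out after their values were seen. Next to LOC112588613 lies mnb, a protein kinase gene that flies need for brain growth, with 20.9 ± 2.66 FPKM in 20E, 18.8 ± 2.14 in JH3 and 14.3 ± 1.79 in DMSO. It was higher in both hormones, by 0.49 ± 0.08 for 20E (adjusted p = 0.000621, limma) and 0.34 ± 0.08 for JH3 (adjusted p = 0.0378), where the lncRNA gene missed the threshold at 0.43 and 0.26. Next to LOC112590450 lies LOC105191682, higher in 20E by 1.51 ± 0.22 (adjusted p = 0.000298), where the lncRNA gene differed by 0.28 ± 0.25 (adjusted p = 0.999). The gene tara overlaps LOC105192496 and was lower in 20E than in JH3 (-0.55 ± 0.12, adjusted p = 0.00862), where the lncRNA gene differed by -0.11 ± 0.09 (adjusted p = 0.591). Enoph, on the other side of LOC105192496, was higher in 20E than in JH3 (0.26 ± 0.08, adjusted p = 0.0473, limma).

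In 3 places 2 members are neighbours of each other. The highest pair of all, LOC105188517 and LOC112589549, flank and overlap the coding gene LOC105188516, which had a median of 0.2 FPKM. LOC112588339 and LOC112588340 follow each other with no gene between, and the ratio of the second to the first stayed between 0.224 and 0.42 (median 0.284) in all 19 brains. LOC105189819 and LOC112589314 both overlap LOC105189820, and their ratio stayed between 0.659 and 0.941 (median 0.808). In each pair the level of both varied more than their ratio: the highest library was 3.48 and 5.78 times the lowest for the second pair, and 2.22 and 2.78 times for the third. Whether the 2 members of a pair are parts of 1 transcript was not tested.

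**Figure D5:**
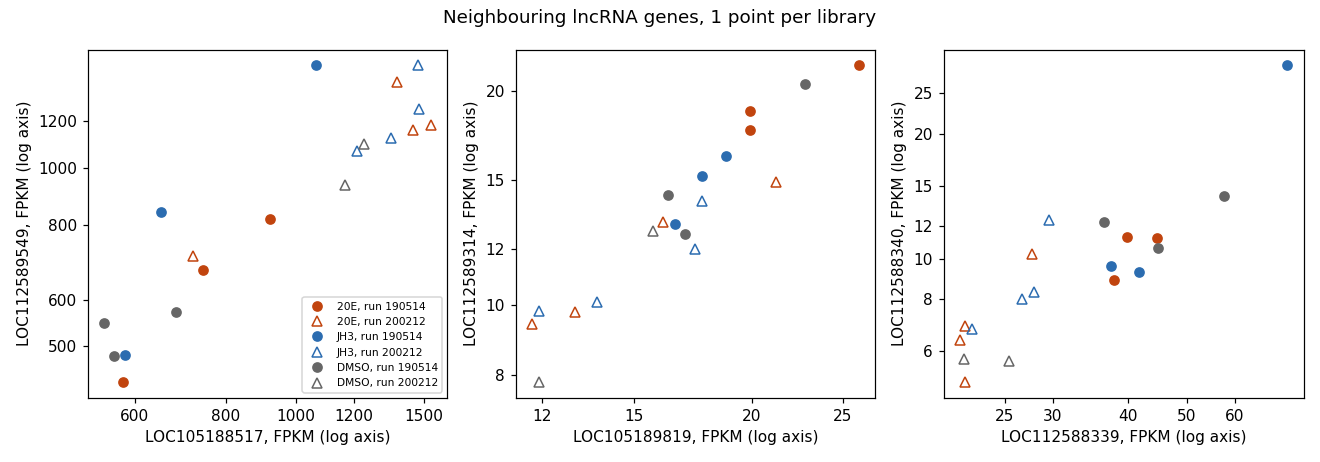
FPKM of 3 pairs of neighbouring lncRNA genes against each other on log axes, 1 point per library, coloured by the injected agent, filled for run 190514 and open for run 200212. In each panel the points run along a diagonal, and in the right panel brain 1 of JH3 (73.3 and 29.2 FPKM) is the highest point.

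Coding genes that make, bind or degrade non-coding RNA were read as a background list. Of 30 names 23 were tested, and 0 were called in any of the 3 hormone comparisons by limma, with medians of -0.03, -0.06 and -0.01 on the log2 scale, where 3.34%, 0.927% and 5.34% of all tested genes were called. Between the runs 11 of them were higher and 5 lower in 200212, with a median of 0.15, where 25.6% of all tested genes were higher and 25.3% lower. Their summed level was 240.3 to 270.1 FPKM in 20E, 206.8 to 269.7 in JH3 and 238.0 to 273.1 in DMSO.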

How the data were processed

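RNA-seq libraries of 19 single central brains were analysed from 1 table of FPKM values that the authors deposited, with 14001 genes named by NCBI gene numbers. Per the submitters' processing notes the tools were bcl2fastq, STAR, featureCounts and DESeq2; versions, genome build, annotation and strand setting of the counting were each not given in the sources used here. Per the labels' protocols the libraries are strand-specific (dUTP) and were made from 600 ng of total RNA. Biotypes, symbols and gene order came from the RefSeq table of Hsal_v8.6, which matched 13989 genes and left 12 unmatched.

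Whole reads could be read back from the FPKM steps for 14001 genes (100.0%, within 0.02 of a whole number), which also gave depth and model length. The authors' scaling divided by total reads ran from 0.763 to 1.125 among libraries. Genes with at least 1 FPKM in at least 5 libraries were tested on log2(FPKM + 0.5) with limma 3.58.1 in R 4.3.3, with a mean per group, a run term and a trended prior. Two-sided p-values were adjusted over 9381 genes by the Benjamini-Hochberg method, with a threshold of 0.05. Adding 0.5 lowers the folds of genes near 1 FPKM. Intervals and SEs cover spread between ants. Other software was matplotlib 3.10.9, pandas 2.3.3, numpy 2.4.6 and Python 3.11.15. The scripts were tested on simulated data.

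The members, lists and rules were chosen with earlier results of these data known. Named were members called in a hormone comparison (or the 3 of smallest adjusted p), the 5 of highest level, the 5 of highest and of lowest spread, the 5 largest run differences each way among members that passed, threshold neighbours, coding neighbours of called members and the 3 most similar genes of 3 members. Other names were chosen after their values were seen. The fit with marker sums was added after the data were seen. Promoter sequence and motifs are not analysed here. Alternatives tried were pseudocounts of 0.1 and 1, no filter and a filter of 5 FPKM, scaling to total reads, voom on the recovered reads, library weights, no run term, a replicate block, only 2 groups, single runs, other level rules, leaving out each library and, added after seeing the data, leaving out brain 6 of 20E and brain 1 of JH3 together.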

Additional observations from a re-analysis of the deposited data

Results flagged for a closer look

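In groups of 5 or 7 brains, a brain was singled out when its gap to the nearest other brain was a large part of the group's whole range (Dixon's critical value). This was looked at for 69 group values of the 23 named members and singled out 5. Over all 60 members it singled out 13 of 180. Chance alone gives about 1 in 20 only for independent, normally spread values. Here each group pools both runs, and the named members were partly picked for spread or run difference, so that rate is a rough guide.

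Brain 1 of JH3 accounted for 3 of the 5. It had 550.7 FPKM of LOC105189300, where the other JH3 brains had 186.1 to 286.1. It had 73.3 FPKM of LOC112588339 against 22.1 to 41.7 in the other JH3 brains, and 85.4 FPKM of LOC112590231 against 21.1 to 45.9. The same brain was the highest of all 19 for 21 of the 60 members, and the share of all tested genes highest in it was not counted. Beyond 2 residual SDs in this brain lay 8.33% of the members and 15.4% of all tested genes.

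Brain 2 of JH3 had 73.8 FPKM of LOC109503804, where the other JH3 brains had 21.0 to 30.5; it is also the library of lowest depth (13.04 M reads) and held 1142.2 FPKM of neuronal markers, the most in JH3. Brain 6 of 20E had 78.7 FPKM of LOC112589703, where the other 20E brains had 6.9 to 21.7. It was the highest library for 11 members and the lowest for 11 others, and these shares were not counted over all genes. Beyond 2 residual SDs in brain 6 of 20E lay 23.3% of the members and 30.2% of all tested genes. What set these brains apart was not tested.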

How the results depend on the processing

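Across alternatives the members higher in 20E than in DMSO numbered 2 to 4 against 3. The values of LOC112588181 and LOC112589703 are a description under each alternative too, since 20E alone admitted them. With library weights 1 member was higher in JH3 than in DMSO, against 0, and 14 were higher in run 200212, against 9; among all genes, weights called 389 higher and 162 lower for 20E (243 and 70) and 127 and 53 for JH3 (59 and 28). Without the run term these were 164 and 29, and 35 and 14; within run 190514 they were 99 and 21, and 13 and 1, and within run 200212 43 and 7, and 8 and 0. For 20E against JH3 (366 and 135) they were 525 and 263 with weights, 224 and 89 without the run term, and 116 and 53, and 115 and 45, within the runs. Without brain 6 of 20E and brain 1 of JH3 they were 282 and 143 for 20E and 93 and 41 for JH3. Total-read scaling turned the split of all genes between the runs to 1681 higher and 2969 lower (2405 and 2374), and that for 20E to 228 and 110; for JH3 it gave 97 and 54. Leaving out each brain in turn gave 2 to 3 members higher in 20E, 0 to 1 higher in JH3, 2 higher in 20E than in JH3, and 8 to 11 higher and 19 to 23 lower in run 200212. Whether replicate numbers pair the brains is not stated. Of 17 same-numbered pairs 6 had a correlation of deviations above 0.1 (-0.38 to 0.50). With so few brains per group and run, these values cannot decide it. With the replicate block in place of the run term, 2 members were higher in 20E than in DMSO, since LOC109503659 missed (0.35, adjusted p = 0.0589, limma); the cause was not tested. Spread had a median of 0.28 for members at 10 FPKM in every library and 0.31 for those at 20 FPKM in 5. Of 558 values of single members under alternatives, 529 kept their side of the threshold, 27 lost it and 2 gained it, and 0 changed sign past it. The 529 include the 20E values of LOC112588181 and LOC112589703, and values of LOC105190342 and LOC112588613 that no fit called. Many alternatives also share nearly all libraries, so this tally is not an independent test. Reads were fewest for LOC112589051, with 15 in its lowest library.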
